A study of Mus musculus with 6 samples.

Results

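The genes described here encode the motors and cargo adaptors of microtubule transport: the kinesins, the intraflagellar transport (IFT) proteins and the Bardet-Biedl syndrome (BBS) proteins. They were chosen by symbol alone: Kif with a number and an optional letter, Ift or Bbs with a number, and Bbip1, Kifc1, Kifc2, Kifc3 and Kifc5b, with antisense names ending in os left out. This gave 65 of 25165 symbols, of which 42 are kinesins, 14 are IFT genes and 9 are BBS genes. Whole-testis RNA of C57BL/6 mice aged 8 weeks was sequenced in 6 libraries, of which 3 carry KO in the title and 3 carry WT. The KO mice are deficient in Teshl, a testis lncRNA, and the WT mice are wild type; the labels name no Cre driver, no second allele and no pooling of animals. The genotype field contradicts the titles in all 6 libraries, so libraries are called by title, and each difference is KO-titled minus WT-titled.

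Kinesins walk along microtubules or shorten them, and use ATP to do so. In a ciliated cell, kinesin-2 carries IFT trains made of the IFT-A and IFT-B complexes toward the tip of the axoneme, dynein-2 brings them back, and the BBSome rides on the trains as an adaptor for membrane cargo. Spermatids use the same proteins to build the flagellum and to move cargo along the manchette, the transient microtubule skirt around the elongating nucleus, while spermatogonia and spermatocytes use other kinesins to divide. Mice without several of these proteins, Ift88, Ift20, Bbs2 and Bbs4 among them, make few or no normal sperm tails.

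The targeted gene was examined first. 1700027A15Rik, the gene of Teshl, was at 0.385 FPKM in KO replicate 1 and listed at 0 in KO replicates 2 and 3, against 1028, 989 and 1081 FPKM in the WT-titled libraries. The levels go with the titles. FPKM counts fragments per length of transcript and per depth of the library, so levels can be compared between genes. From the steps between the lowest values, libraries held an estimated 27600000 to 39200000 fragments, and 3 fragments on 1 kb then equal 0.0766 to 0.109 FPKM. Since testis RNA is a mixture, fewer cells of a type and less RNA per cell cannot be told apart.

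No kinesin, IFT or BBS gene passed the test between the groups. Of 59 members tested, 0 were higher and 0 lower in the KO-titled libraries (limma on log2(FPKM + 1), Benjamini-Hochberg adjusted p under 0.05 over all 12952 tested genes), where 0.788% of all tested genes were higher and 0.363% lower. Before adjustment, at p under 0.05, 0 members were higher and 3 were lower (5.08% of members, where 8.89% of all tested genes were lower and 5.38% higher). The smallest adjusted p among members was 0.233, for Kif1b. The median log2 fold change was -0.06 over the members and -0.04 over all tested genes. Negative values were found in 46 of the 59 members (78.0%) and in 65.7% of all tested genes; after median-of-ratios scaling, which moved the median of all genes to -0.0055, this became 36 members (61.0%) and 52.2% of all tested genes.

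The intervals around these fold changes were narrow. In 57 of 59 members the 95% interval of the log2 fold change lay within 0.5 of zero on both sides. Bbip1, which shares exon sequence with another gene, and Kifc3, listed at 0 in a library of each group, were the exceptions. Among all 12952 tested genes, 11993 had such an interval. The median distance from the estimate to the end of its interval was 0.15 over the members and 0.16 over all tested genes. These values belong to the pseudocount of 1, which draws fold changes of low genes toward zero. Kif5a, with a mean of 0.924 FPKM, had -0.20 with it and -0.38 with a pseudocount of 0.1. Intervals with smaller pseudocounts were not counted. All 3 KO-titled libraries lay below all 3 WT-titled ones in 12 members (20.3%), where 15.8% of all tested genes did so. The reverse arrangement was found in 0 members and in 5.92% of all tested genes. With median-of-ratios scaling 5 members lay wholly below (8.47%, where 9.58% of all tested genes did so) and 3 wholly above (5.08%, where 10.4% of all tested genes did so). In the values as deposited the 12 were Kif1b, Kif3b, Kif5a, Kif9, Kif17, Kif18a, Kif22, Ift52, Ift80, Ift88, Ift140 and Bbs7.

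**Figure D1:**
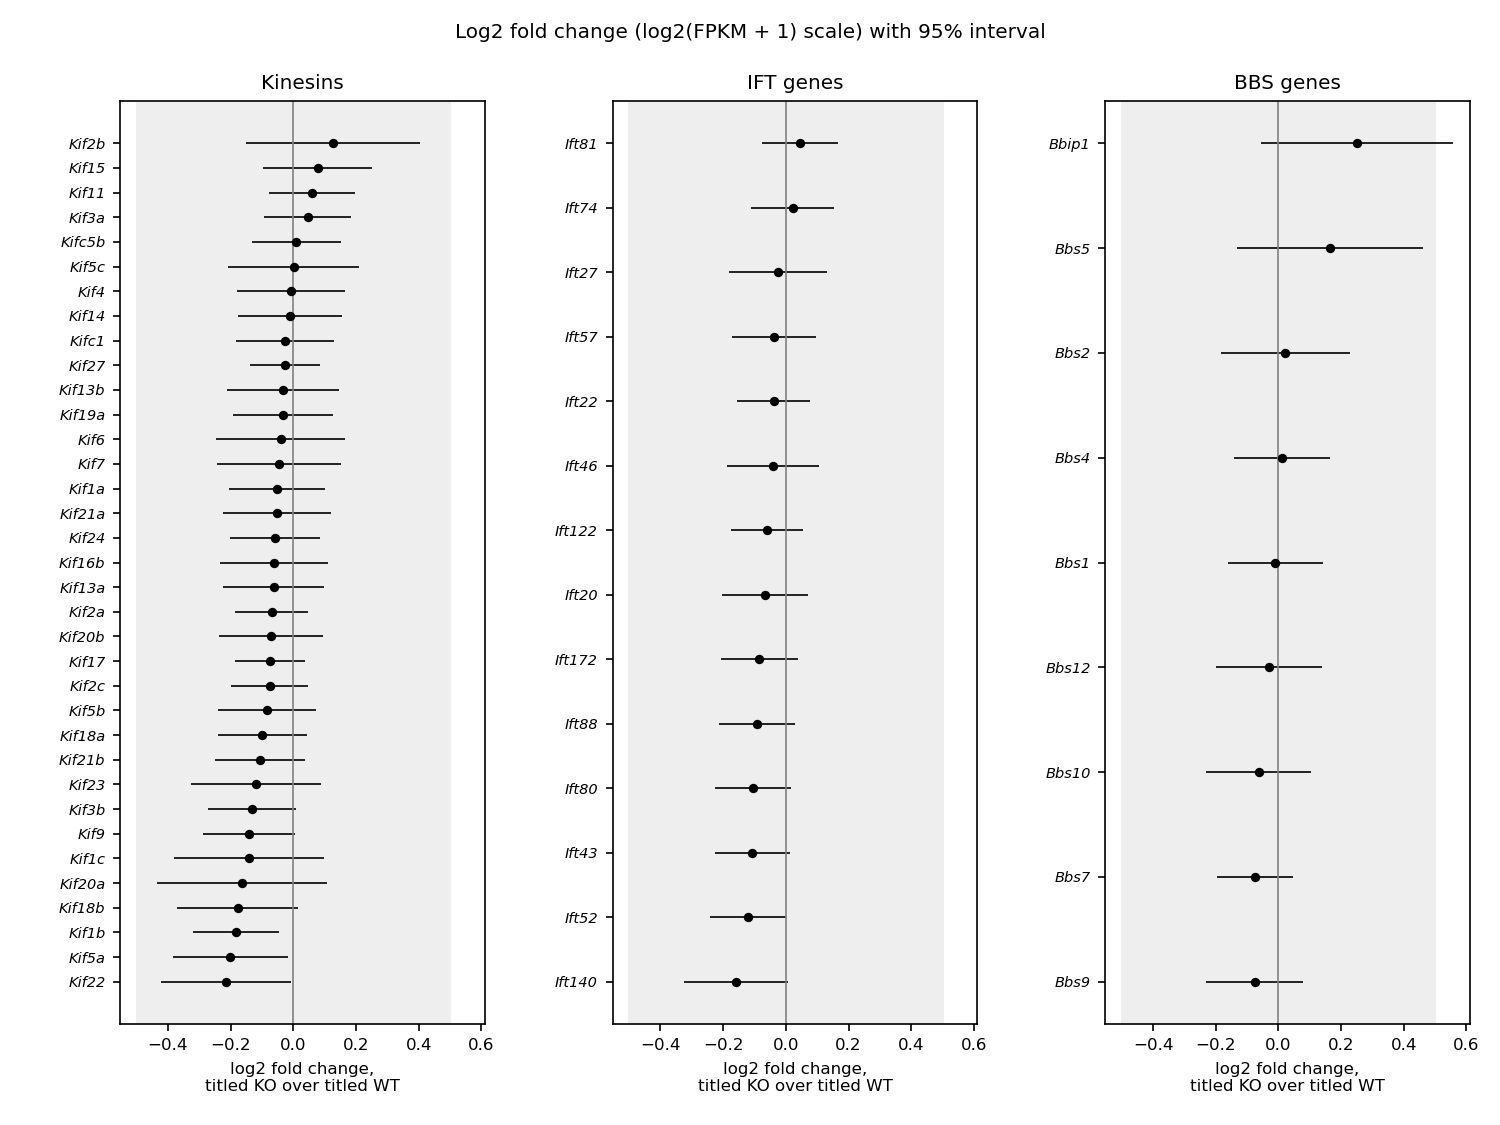
Log2 fold change of KO-titled over WT-titled libraries on the log2(FPKM + 1) scale (horizontal axis) for 58 tested genes, by gene (vertical axis), with bars for the 95% interval from limma and grey shading within 0.5 of zero; Kifc3, listed at 0 in a library of each group, is left out. Every point lies between -0.22 (Kif22) and 0.25 (Bbip1), and the interval of Bbip1 is the one that leaves the shading.

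Levels spanned a wide range among kinesins and a narrower one among IFT genes. The 39 kinesins with any value had means over 6 libraries from 0.164 FPKM (Kif26b) to 205 FPKM (Kif2b), with a median of 6.14 FPKM. The 14 IFT genes lay between 16.5 FPKM (Ift52) and 102 FPKM (Ift43), with a median of 26.8 FPKM, and the 9 BBS genes between 1.48 FPKM (Bbs12) and 37.4 FPKM (Bbs5), with a median of 8.75 FPKM. Every IFT gene and every BBS gene was tested. Of the 6 members left untested, Kif12, Kif28 and Kifc2 were listed at 0 in every library, and Kif3c, Kif26a and Kif26b were below the filter of 1 FPKM. Spread over the 6 libraries, apart from Kifc3, had a median coefficient of variation of 6.32% among tested members and ranged from 1.85% (Kifc5b) to 20.03% (Kif5a).

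**Figure D2:**
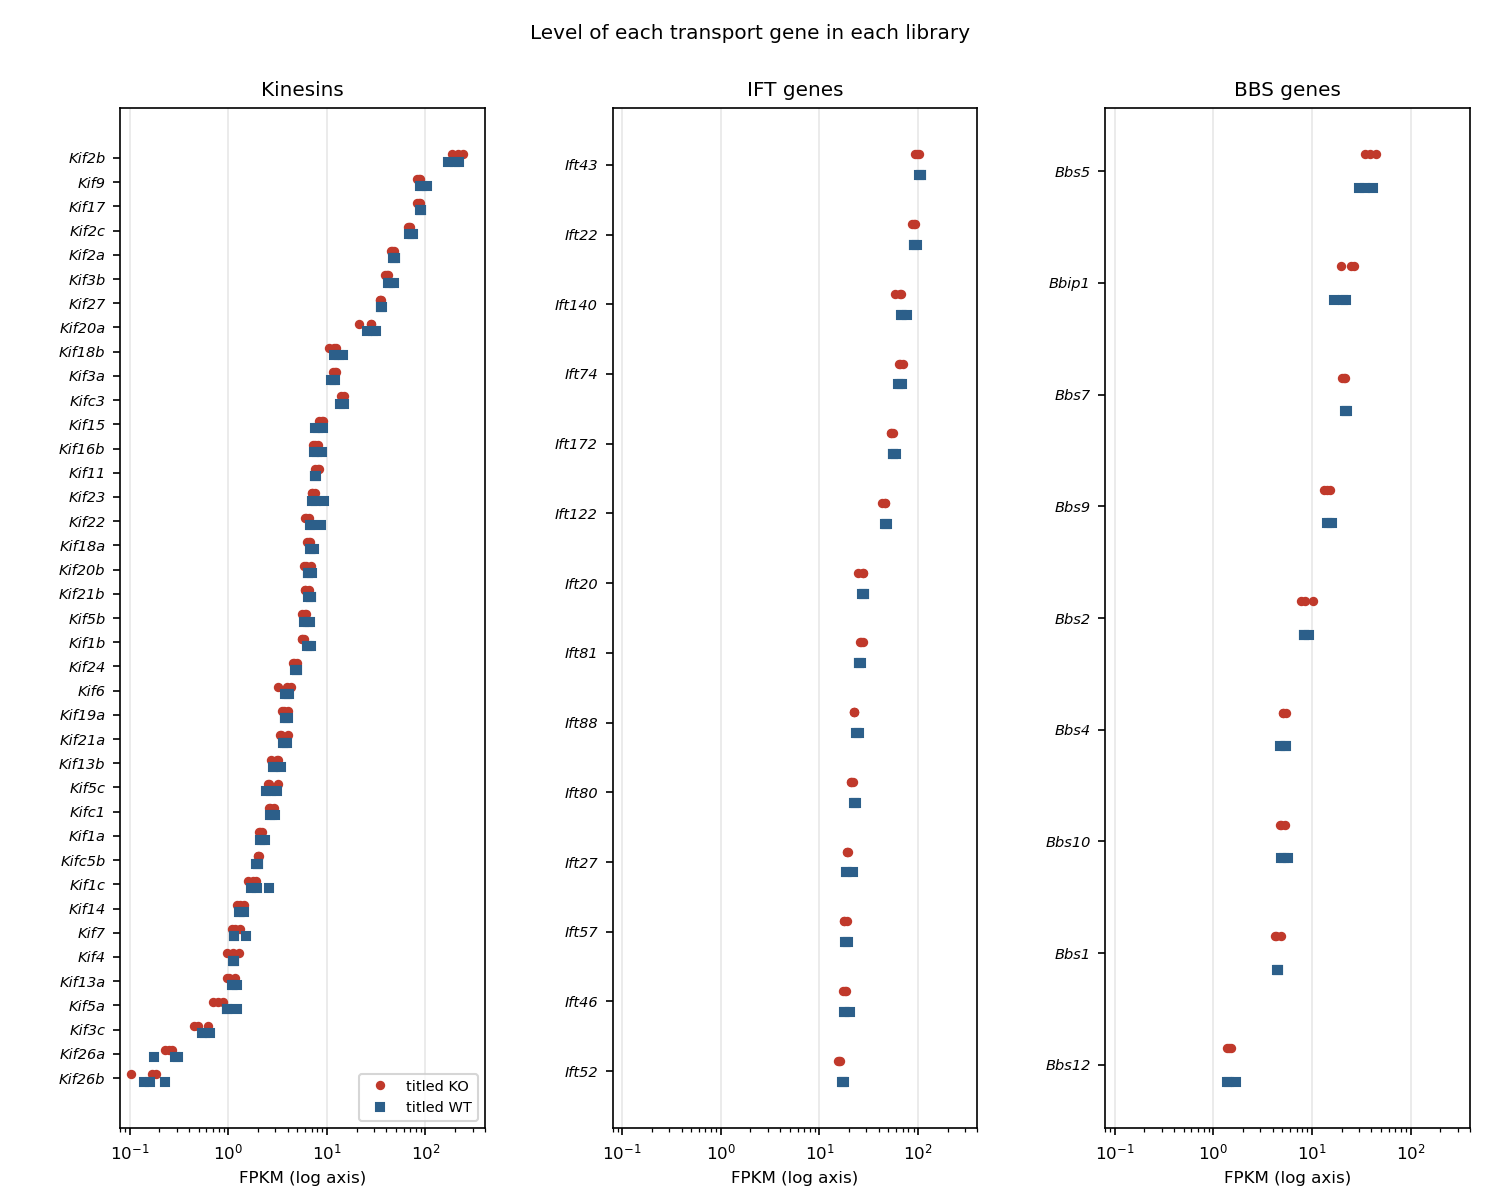
FPKM of each member in each library (horizontal log axis), ordered by mean level within kinesins, IFT genes and BBS genes (vertical axis), with circles for KO-titled and squares for WT-titled libraries; values listed at 0 cannot be drawn on a log axis. Kif2b stands highest at 170 to 242 FPKM, and the circles and squares of most genes lie close together.

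Among the cargo motors, kinesin-2 was the most abundant family. Kif17, which in the mouse testis binds the coactivator of CREM and moves it out of spermatid nuclei, was at 87.98, 85.7 and 81.7 FPKM in KO-titled testes and 89.8, 91.005 and 88.1 FPKM in WT-titled testes. The groups did not overlap, by a margin of under 1 FPKM, and the log2 fold change was -0.07 (SE 0.05, adjusted p = 0.494 by limma), or -0.05 without KO replicate 3. Kif3b, one of the paired motor subunits of the IFT motor, was at 41.3, 39.0 and 40.9 FPKM in KO-titled testes, against 42.0, 48.1 and 43.2 FPKM in WT-titled testes. WT replicate 2 was the highest of these. Its log2 fold change was -0.13 (SE 0.06, adjusted p = 0.378 by limma) and -0.08 without that library. The other motor subunit, Kif3a, was at 12.1 ± 0.391 FPKM in KO-titled testes and 11.7 ± 0.612 FPKM in WT-titled testes (SD, n = 3 each), with a log2 fold change of 0.05. Kif3c, a subunit known from neurons, was at 0.524 ± 0.0931 FPKM in KO-titled testes and 0.594 ± 0.0591 FPKM in WT-titled testes (SD, n = 3 each) and was not tested. An antisense gene, 1110002L01Rik, covers 2617 nt of its exons, and reads of such a pair can be assigned to either. Summed over the family, kinesin-2 was at 138 ± 2.99 FPKM in KO-titled testes and 146 ± 4.62 FPKM in WT-titled testes (SD, n = 3 each).

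Kinesin-1 and kinesin-3, which haul vesicles and organelles over long distances, were low. The 3 kinesin-1 genes together reached 9.45, 9.48 and 9.52 FPKM in KO-titled libraries, against 9.94, 10.05 and 10.5 FPKM in WT-titled libraries. These sums lay apart as deposited and with upper-quartile and total scaling, and overlapped with median-of-ratios scaling. Kif5b, the kinesin-1 heavy chain of most tissues, was at 5.93 ± 0.285 FPKM in KO-titled testes and 6.35 ± 0.469 FPKM in WT-titled testes (SD, n = 3 each), with a log2 fold change of -0.08 (adjusted p = 0.572 by limma), which ran from -0.13 to -0.04 without single libraries. Kif5a, a neuronal heavy chain, was at 0.886, 0.702 and 0.780 FPKM in KO-titled testes and 0.962, 1.23 and 0.980 FPKM in WT-titled testes. The groups did not overlap, and the log2 fold change was -0.20 (95% interval -0.38 to -0.02, adjusted p = 0.313 by limma). With a pseudocount of 0.1 in place of 1 it was -0.38 (adjusted p = 0.307 by limma), and with 0.01 it was -0.42 (adjusted p = 0.301 by limma). Without WT replicate 2 Kif5a was under the filter and not tested. Kif1b, a kinesin-3 that carries mitochondria and synaptic vesicle precursors, was at 5.81, 5.59 and 5.66 FPKM in KO-titled testes and 6.53, 6.92 and 6.33 FPKM in WT-titled testes. The groups lay apart, and this gene had the smallest p of all members, with a log2 fold change of -0.18 (SE 0.06, 95% interval -0.32 to -0.05, adjusted p = 0.233 by limma). Kif16b, a motor of early endosomes, had the highest mean of the kinesin-3 family and a log2 fold change of -0.06. Kif1c, of the same family, ranged from 1.603 to 1.92 FPKM in KO-titled testes and from 1.70 to 2.59 FPKM in WT-titled testes, and the groups overlapped; its log2 fold change was -0.14, or -0.02 without WT replicate 2. All 7 tested kinesin-3 genes had negative values, from -0.18 to -0.01, and none passed. Of all tested genes, 65.7% were negative. With median-of-ratios or upper-quartile scaling 6 of the 7 were negative, where 52.2% and 56.5% of all tested genes were.

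Motors of the axoneme and of ciliary signalling differed widely in level. Kif9, a kinesin of the central apparatus of the sperm axoneme in mice, was at 87.6, 82.2 and 86.4 FPKM in KO-titled testes and 92.5, 103 and 87.8 FPKM in WT-titled testes. The lowest WT-titled library and the highest KO-titled library nearly met, and the log2 fold change was -0.14 (SE 0.07, adjusted p = 0.369 by limma) and -0.08 without WT replicate 2. Kif6, the other kinesin-9, was at 3.84 ± 0.575 FPKM in KO-titled testes and 3.95 ± 0.194 FPKM in WT-titled testes (SD, n = 3 each). Kif27 and Kif7 are relatives of one another, and Kif7 regulates Hedgehog signalling at the ciliary tip. Kif27 was at 34.9 ± 0.771 FPKM in KO-titled testes and 35.6 ± 0.500 FPKM in WT-titled testes (SD, n = 3 each), with a 95% interval of the log2 fold change from -0.14 to 0.09. Kif7 was at 1.20 ± 0.123 FPKM in KO-titled testes and 1.27 ± 0.220 FPKM in WT-titled testes (SD, n = 3 each). Kif21b, of the same kinesin-4 family, had its largest fold change, -0.11 (adjusted p = 0.451 by limma).

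Kif4, a chromokinesin of the same family, is the one X-linked member. It lies at 100625737 to 100727214 of the X chromosome (GRCm38, plus strand), and GENCODE M21 places 832 nt of its exons over Pdzd11 on the other strand. Its level was 0.977, 1.12 and 1.29 FPKM in KO-titled testes and 1.13, 1.15 and 1.12 FPKM in WT-titled testes. The KO-titled libraries lay on both sides of the WT-titled ones, and the log2 fold change was -0.01 (95% interval -0.18 to 0.16, adjusted p = 0.970 by limma). That value turned positive with median-of-ratios scaling (0.02) and with upper-quartile scaling (0.0087).

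Kinesin-13 motors take microtubules apart from their ends, and they held the highest level of all. Kif2b, on chromosome 11 at 91575315 to 91577558 (minus strand), has 1 annotated transcript of 2244 nt, as long as the gene itself. Its level was 185, 242 and 214 FPKM in KO-titled testes and 198, 170 and 219 FPKM in WT-titled testes. KO replicate 2 was the highest and WT replicate 2 the lowest, with the other libraries interleaved, and the log2 fold change was 0.13 (SE 0.12, 95% interval -0.15 to 0.40, adjusted p = 0.619 by limma). It was 0.03 without KO replicate 2 or without WT replicate 2, 0.23 without KO replicate 1 and 0.21 without WT replicate 3. Kif2c, which corrects kinetochore attachments, was at 68.0 ± 1.40 FPKM in KO-titled testes and 71.8 ± 3.73 FPKM in WT-titled testes (SD, n = 3 each). Kif2a, which acts at spindle poles, was at 46.4 ± 1.31 FPKM in KO-titled testes and 48.8 ± 1.25 FPKM in WT-titled testes (SD, n = 3 each). Both had overlapping groups, with log2 fold changes of -0.08 and -0.07. Kif24, which trims centriolar microtubules and holds back cilium formation, was at 4.69 ± 0.242 FPKM in KO-titled testes and 4.92 ± 0.137 FPKM in WT-titled testes (SD, n = 3 each).

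Among motors of chromosome movement and cytokinesis none passed. Kif22, a chromokinesin that binds chromosome arms, was at 6.13, 6.03 and 6.66 FPKM in KO-titled testes and 6.81, 8.77 and 6.88 FPKM in WT-titled testes. WT replicate 2 stood above the rest, and the log2 fold change was -0.22 (SE 0.09, 95% interval -0.42 to -0.01, adjusted p = 0.332 by limma). Without WT replicate 2 it was -0.11. Kif18b, a kinesin-8 that limits astral microtubules, was at 12.4, 10.6 and 11.8 FPKM in KO-titled testes and 13.2, 14.7 and 11.8 FPKM in WT-titled testes (log2 fold change -0.18, adjusted p = 0.384 by limma). Its groups overlapped, and without WT replicate 2 the value was -0.11. Kif18a, which aligns chromosomes at the spindle equator, was at 6.56 ± 0.241 FPKM in KO-titled testes and 7.09 ± 0.355 FPKM in WT-titled testes (SD, n = 3 each). Kif20a and Kif23 act in cytokinesis. Kif23 was at 7.27 ± 0.258 FPKM in KO-titled testes and 8.03 ± 1.22 FPKM in WT-titled testes (SD, n = 3 each). Kif20b, of the same kinesin-6 family, was at 6.32 ± 0.539 FPKM in KO-titled testes and 6.69 ± 0.393 FPKM in WT-titled testes (SD, n = 3 each). Kif19a, a kinesin-8 that limits the length of cilia in mice, was at 3.76 ± 0.281 FPKM in KO-titled testes and 3.86 ± 0.180 FPKM in WT-titled testes (SD, n = 3 each). Kif11, which pushes spindle poles apart, and Kif15, which supports it, had positive values of 0.06 and 0.08, with overlapping groups as deposited. With median-of-ratios and upper-quartile scaling the KO-titled libraries of Kif11 lay wholly above the WT-titled ones. Its log2 fold change was then 0.098 (adjusted p = 0.444 by limma) and 0.087 (adjusted p = 0.505 by limma). With total scaling its groups overlapped.

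The IFT genes moved within a narrow band. Their log2 fold changes lay between -0.16 and 0.05, and 0 were called in either direction. As deposited 12 of the 14 were negative (85.7%, where 65.7% of all tested genes were). With median-of-ratios scaling 8 were negative (57.1%, where 52.2% of all tested genes were). With upper-quartile scaling 11 were (78.6%, against 56.5%), and with total scaling 12 (85.7%, against 69.0%). Summed over all 14, the level was 587 ± 7.78 FPKM in KO-titled testes and 615 ± 19.4 FPKM in WT-titled testes (SD, n = 3 each), or 0.954 of the WT-titled level, and the groups did not overlap. With median-of-ratios scaling the log2 ratio of this sum was -0.025, against -0.07 as deposited; the groups overlapped with that and with upper-quartile scaling, and lay apart with total scaling.

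IFT-A serves return transport and entry of membrane proteins into cilia. Ift140, its large subunit, was at 66.8, 58.4 and 65.8 FPKM in KO-titled testes and 68.2, 77.8 and 67.6 FPKM in WT-titled testes. KO replicate 2 was the lowest and WT replicate 2 the highest, and the log2 fold change was -0.16 (SE 0.07, 95% interval -0.32 to 0.01, adjusted p = 0.374 by limma). It was -0.10 without KO replicate 2 and -0.09 without WT replicate 2. Ift43, a small subunit and the most abundant IFT gene, was at 93.8, 97.9 and 102 FPKM in KO-titled testes and 102, 107 and 108 FPKM in WT-titled testes. Its groups met at 102 FPKM, with a log2 fold change of -0.11 (adjusted p = 0.393 by limma). Ift122, another IFT-A subunit, was at 45.3 ± 1.46 FPKM in KO-titled testes and 47.2 ± 1.06 FPKM in WT-titled testes (SD, n = 3 each). The IFT-A sum of these genes was 207 ± 7.19 FPKM in KO-titled testes and 224 ± 8.50 FPKM in WT-titled testes (SD, n = 3 each). The groups did not overlap as deposited or with median-of-ratios, upper-quartile or total scaling, and the log2 ratio lay between -0.13 and -0.07 over those scalings.

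IFT-B forms the backbone of outbound trains and carries tubulin. Ift52, a core subunit, was at 15.4, 15.6 and 16.2 FPKM in KO-titled testes and 17.2, 17.6 and 16.9 FPKM in WT-titled testes. The groups lay apart, and the log2 fold change was -0.12 (SE 0.05, adjusted p = 0.355 by limma). Ift88, which spermatids of mice need for the flagellum, was at 22.6, 22.5 and 22.6 FPKM in KO-titled testes and 23.97, 25.2 and 23.4 FPKM in WT-titled testes. Those groups too lay apart, with a log2 fold change of -0.09 (adjusted p = 0.440 by limma). Ift80 was at 21.3 ± 0.634 FPKM in KO-titled testes and 23.0 ± 0.553 FPKM in WT-titled testes (SD, n = 3 each; log2 fold change -0.10, adjusted p = 0.400 by limma). The other 8 overlapped between groups. Lying wholly below were thus 27.3% of the 11 IFT-B genes, where 15.8% of all tested genes did so. Of all 14 IFT genes, 4 lay wholly below as deposited (28.6%). After median-of-ratios scaling, 2 of the 14 did so (14.3%, against 9.58% of all tested genes). Only 1 then lay wholly above (7.14%, against 10.4% of all tested genes). Ift22, a small GTPase-like subunit and the most abundant of IFT-B, was at 90.3 ± 2.95 FPKM in KO-titled testes and 92.8 ± 3.45 FPKM in WT-titled testes (SD, n = 3 each). Ift172, the largest IFT-B subunit, was at 53.9 ± 1.85 FPKM in KO-titled testes and 57.3 ± 2.33 FPKM in WT-titled testes (SD, n = 3 each). Ift20, which also sits at the Golgi, was at 26.7 ± 1.62 FPKM in KO-titled testes and 28.0 ± 0.797 FPKM in WT-titled testes (SD, n = 3 each). Ift27, Ift46 and Ift57 averaged between 18.5 and 19.5 FPKM over the 6 libraries. Ift74 and Ift81, which together bind tubulin, had positive values of 0.02 and 0.05.

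The summed BBS genes were slightly higher in KO-titled libraries, and their groups overlapped. Summed over 9 genes, the level was 123 ± 7.55 FPKM in KO-titled testes and 117 ± 7.67 FPKM in WT-titled testes (SD, n = 3 each). Bbs5 (39.5 against 35.2 FPKM) and Bbip1 (23.8 against 19.8 FPKM) held that difference, and Bbip1 has to be read beside Shoc2. By gene, 4 values were positive and 5 negative, with a median log2 fold change of -0.0095. Bbs5, a BBSome subunit that binds phosphoinositides, was at 34.8, 44.96 and 38.8 FPKM in KO-titled testes and 34.5, 30.1 and 41.1 FPKM in WT-titled testes, with a log2 fold change of 0.16 (SE 0.13, 95% interval -0.13 to 0.46, adjusted p = 0.551 by limma). KO replicate 2 was the highest and WT replicate 2 the lowest, as in Kif2b. The value was 0.07 without KO replicate 2, 0.06 without WT replicate 2, 0.25 without KO replicate 1 and 0.28 without WT replicate 3. Bbs7, of the same complex, was at 21.2, 21.4 and 20.3 FPKM in KO-titled testes and 21.9, 22.7 and 21.8 FPKM in WT-titled testes (log2 fold change -0.07, adjusted p = 0.521 by limma). Bbs1, Bbs2 and Bbs4 had log2 fold changes of -0.01, 0.02 and 0.01. Bbs9, which scaffolds the BBSome, was at 14.2 ± 1.01 FPKM in KO-titled testes and 15.01 ± 0.797 FPKM in WT-titled testes (SD, n = 3 each). Bbs10 and Bbs12 are chaperonin-like proteins that help the BBSome assemble. Bbs10 was at 4.96 ± 0.314 FPKM in KO-titled testes and 5.23 ± 0.440 FPKM in WT-titled testes, and Bbs12 at 1.45 ± 0.0689 and 1.51 ± 0.169 FPKM in the same order (SD, n = 3 each).

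Bbip1, the smallest BBSome subunit, has to be read beside Shoc2. It was at 19.9, 25.01 and 26.4 FPKM in KO-titled testes and 20.4, 16.7 and 22.4 FPKM in WT-titled testes (log2 fold change 0.25, SE 0.13, 95% interval -0.06 to 0.56, adjusted p = 0.413 by limma). Without single libraries the value ran from 0.14 (without WT replicate 2) to 0.37 (without KO replicate 1). Shoc2, a scaffold of the Ras pathway on the opposite strand of chromosome 19, shares 97 nt of exon with it. It stood at a listed 0 in each of the 3 KO-titled libraries and at 4.51, 5.72 and 4.59 FPKM in WT-titled testes. The 2 genes together had 19.9, 25.01 and 26.4 FPKM in KO-titled testes and 24.9, 22.4 and 26.9 FPKM in WT-titled testes, or 23.8 ± 3.45 and 24.7 ± 2.29 FPKM (SD, n = 3 each). On that sum the groups overlapped, with KO-titled libraries slightly the lower. A sum of FPKM over genes of unequal length is not a fragment total, and the part of shared reads in the value of Bbip1 was not tested.

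Kifc3, a minus-end motor of the kinesin-14 family, was present or absent from the tables by library and not by group. It was listed at 0 in KO replicate 1 and at 15.1 and 13.96 FPKM in replicates 2 and 3, against 13.5 FPKM, a listed 0 and 14.9 FPKM in WT replicates 1, 2 and 3. A log2 fold change for Kifc3 (0.02, 95% interval -4.98 to 5.02) is too uncertain to compare the groups.

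A pair of the same kind as Bbip1 and Shoc2 was Kif20a and Cdc23, a subunit of the anaphase-promoting complex, which share 1271 nt of exon on opposite strands. Kif20a was at 28.0, 21.1 and 28.0 FPKM in KO-titled testes and 25.8, 31.2 and 29.3 FPKM in WT-titled testes. Cdc23 was listed at 0 in KO replicates 1 and 3, at 3.79 FPKM in replicate 2, at 3.84 and 4.44 FPKM in WT replicates 1 and 2, and at 0 in replicate 3. In each group the lowest Kif20a value stood in a library with Cdc23 above 0, but WT replicate 2 held the highest value of both. The log2 fold change of Kif20a was -0.16 (adjusted p = 0.525 by limma), and -0.03 without KO replicate 2. Kif2a shares 1229 nt with Dimt1, which was listed at 0 in all 6 libraries. Of the members at 0 throughout, Kif28 shares 155 nt with Ahctf1 (31.9 to 36.5 FPKM) and Kifc2 shares 163 nt with Cyhr1 (40.0 to 45.03 FPKM), while Kif12 shares exons with no gene in these tables. A listed 0 beside an expressed overlapping gene need not mean absence.

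**Figure D3:**
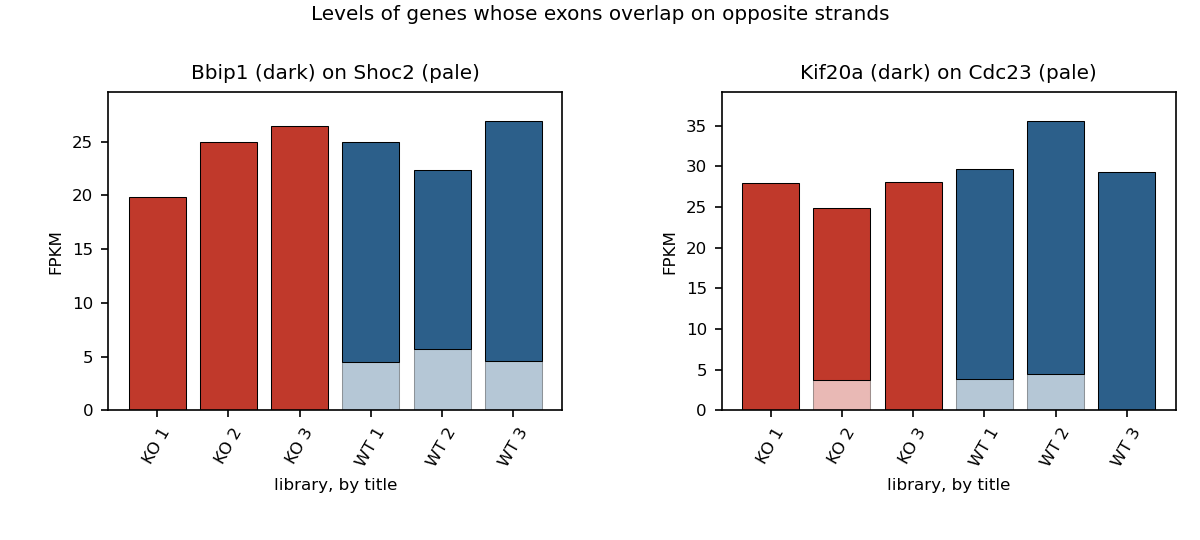
FPKM (vertical axis) of 2 members (dark) stacked on the gene that overlaps each on the opposite strand (pale), in each library by title (horizontal axis), red for KO-titled and blue for WT-titled libraries. The pale part of the Bbip1 and Shoc2 stacks is missing in all 3 KO-titled libraries, and that of the Kif20a and Cdc23 stacks in KO 1, KO 3 and WT 3.

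Near copies were a second source of doubt. Kifc1, a kinesin-14 that focuses spindle poles and acts in acrosome formation, has a close copy in Kifc5b on the same chromosome. Kifc1 lies at chr17:33875659-33890661 (minus strand) and Kifc5b at chr17:26917091-26932583 (plus strand, GRCm38). Their coding sequences, of 2025 and 2019 nt in GENCODE M21, were identical at 98.7% of 2015 aligned bases. Gm20763, Gm21358 and Kifc5c-ps, which are not analysed here, also matched both genes, at 91.3% to 92.8% identity. A coding stretch of 75 bases is shown as an example of how alike Kifc1 and Kifc5b are, with the 1 base that differs in capitals:
Kifc1: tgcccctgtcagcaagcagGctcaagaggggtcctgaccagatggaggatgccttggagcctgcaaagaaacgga
Kifc5b: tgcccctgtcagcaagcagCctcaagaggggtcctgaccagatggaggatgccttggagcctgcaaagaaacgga
Kifc1 was at 2.66, 2.61 and 2.88 FPKM in KO-titled testes and 2.63, 2.97 and 2.75 FPKM in WT-titled testes, and Kifc5b at 1.99, 2.04 and 1.9997 FPKM in KO-titled testes and 2.02, 2.02 and 1.93 FPKM in WT-titled testes. How reads were divided between them is uncertain, and neither passed the test, with log2 fold changes of -0.03 and 0.01. Kif2c has a partial copy, Gm4961, at 0.0697 to 0.173 FPKM, and Kif11 has one in Gm15697, which is not analysed here.

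Single libraries stood apart from the rest of their group in many members at once. KO replicate 2 held the lowest of the 6 values in 27 of 59 members (45.8%), where it did so in 30.1% of all tested genes. WT replicate 2 held the highest value in 32 members (54.2%), where it did so in 36.7% of all tested genes. Kif2b, Kif5c, Kif15, Bbip1, Bbs5 and Bbs12 ran the opposite way, with WT replicate 2 at the bottom. Kif2b stood at 118% of its 6-library mean in KO replicate 2 and at 83.2% in WT replicate 2, and Bbs5 at 120% and 80.6%. Kif18b stood at 85.1% and 118%, Kif20a at 77.5% and 114%, and Ift140 at 86.6% and 115% in the same pair of libraries.

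**Figure D4:**
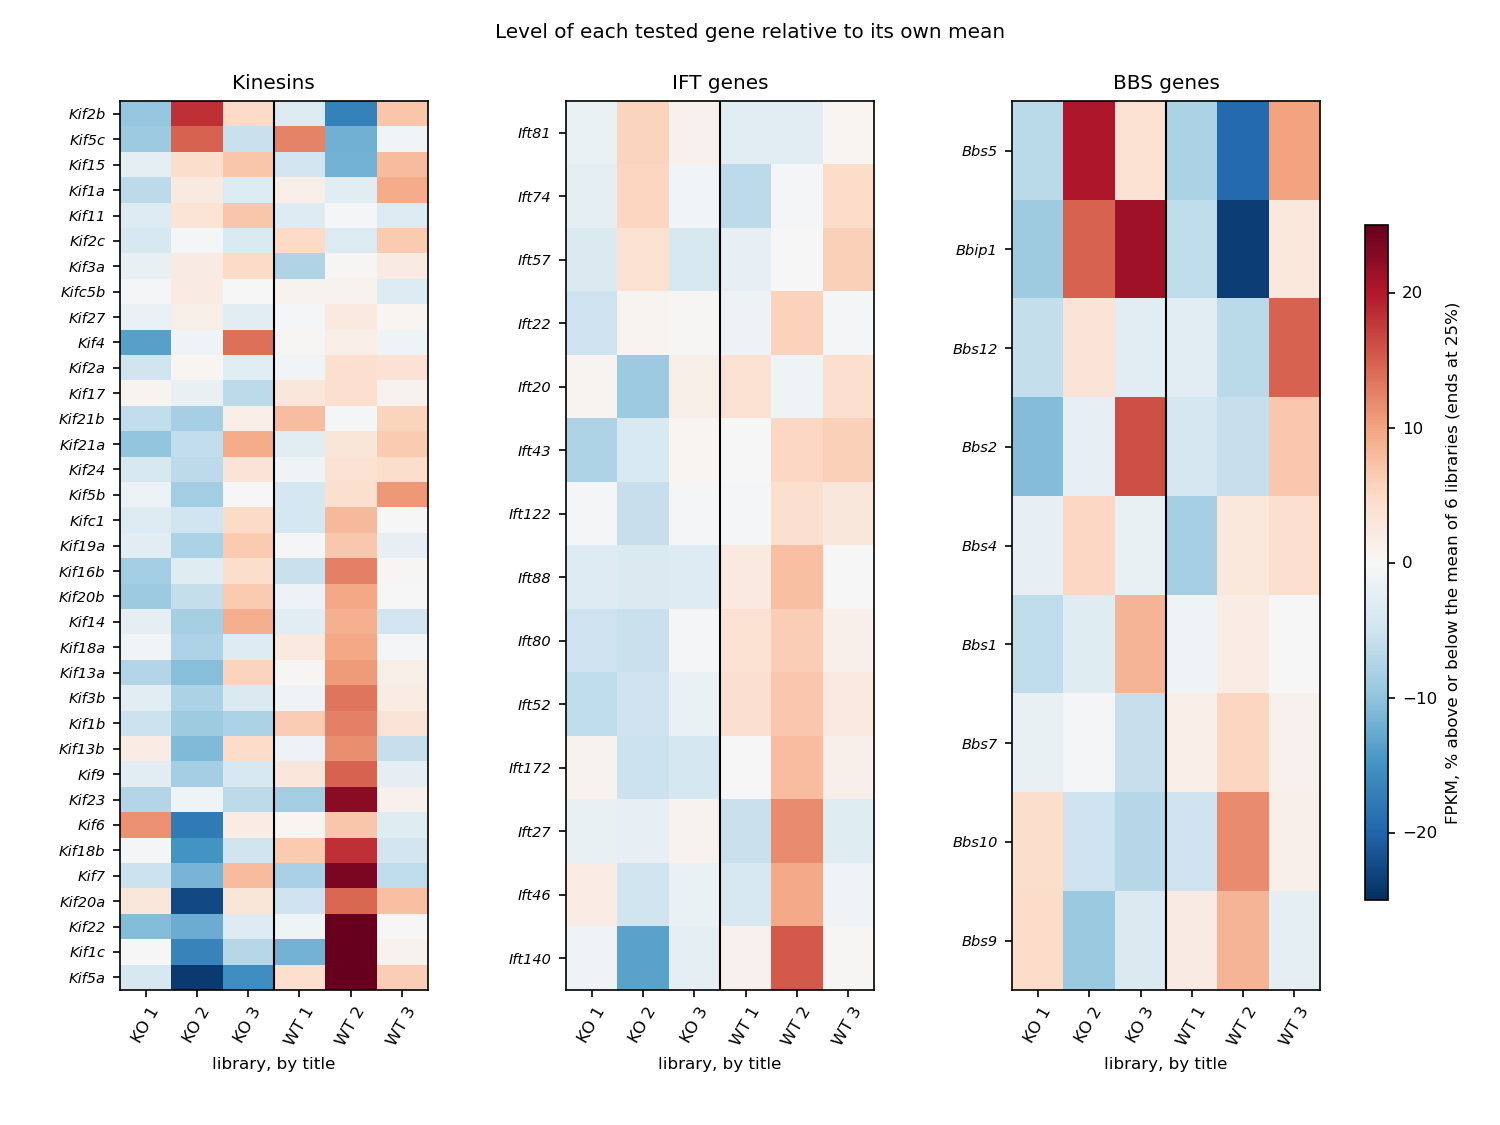
FPKM of each tested member as the percent above (red) or below (blue) its own mean over 6 libraries, with libraries across and genes down, ordered within each class by KO replicate 2 minus WT replicate 2; the colour scale ends at 25% and Kifc3 is left out. Columns KO 2 and WT 2 hold many of the strongest colours, as in Bbs5 at 120% and 80.6% of its mean.

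Markers of the germ cell stages moved between libraries as well. The 8 elongating spermatid markers, among them Prm1, Prm2 and Tnp2 of sperm chromatin, summed to 32845, 34922 and 33979 FPKM in KO-titled testes and 29109, 27599 and 31505 FPKM in WT-titled testes. The groups did not overlap, WT replicate 2 was the lowest and KO replicate 2 the highest. Most of this sum came from Prm1, Prm2, Tnp1 and Tnp2, with KO-titled means of 10218, 8837, 5397 and 6615 FPKM. The log2 fold changes of the others were 0.17 (Prm3), 0.13 (Akap4), 0.04 (Gapdhs) and -0.04 (Odf1). By limma 0 of these 8 genes were called, and 5 were higher (62.5%) and 0 lower at p under 0.05 before adjustment, where 5.38% of all tested genes were higher and 8.89% lower. Round spermatid markers summed to 860, 1027 and 919 FPKM in KO-titled testes and 865, 809 and 951 FPKM in WT-titled testes, and spermatocyte markers to 396, 393 and 415 FPKM and 397, 419 and 410 FPKM in the same order. Spermatogonial markers summed to 46.9, 46.9 and 52.2 FPKM in KO-titled testes and 53.4, 57.0 and 61.7 FPKM in WT-titled testes, without overlap. Uchl1, a neuronal and spermatogonial deubiquitinase, held most of that difference, and without it the sums were 24.4, 25.96 and 27.7 FPKM in KO-titled testes and 26.8, 27.01 and 28.8 FPKM in WT-titled testes, which overlap. Of the 7 spermatogonial markers tested, 3 had positive and 4 negative values. Markers of macrophages, a cell type outside the tubules, were at 14.99 to 18.6 FPKM in KO-titled testes and 15.3 to 25.2 FPKM in WT-titled testes, with the highest sum in WT replicate 2. Sertoli, Leydig and peritubular sums overlapped between groups. In KO-titled means, Clu held 313 of 412 FPKM of the Sertoli sum and Insl3 1378 of 1631 FPKM of the Leydig sum. By gene, 7 of 7 tested Leydig, 6 of 7 Sertoli and 4 of 5 peritubular markers were negative, where 65.7% of all tested genes were. Round spermatid markers were positive in 8 of 8, spermatocyte markers in 4 of 8 and macrophage markers in 1 of 4. By limma 0 of these were called. The part of these shifts in the values of the transport genes was not tested.

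**Figure D5:**
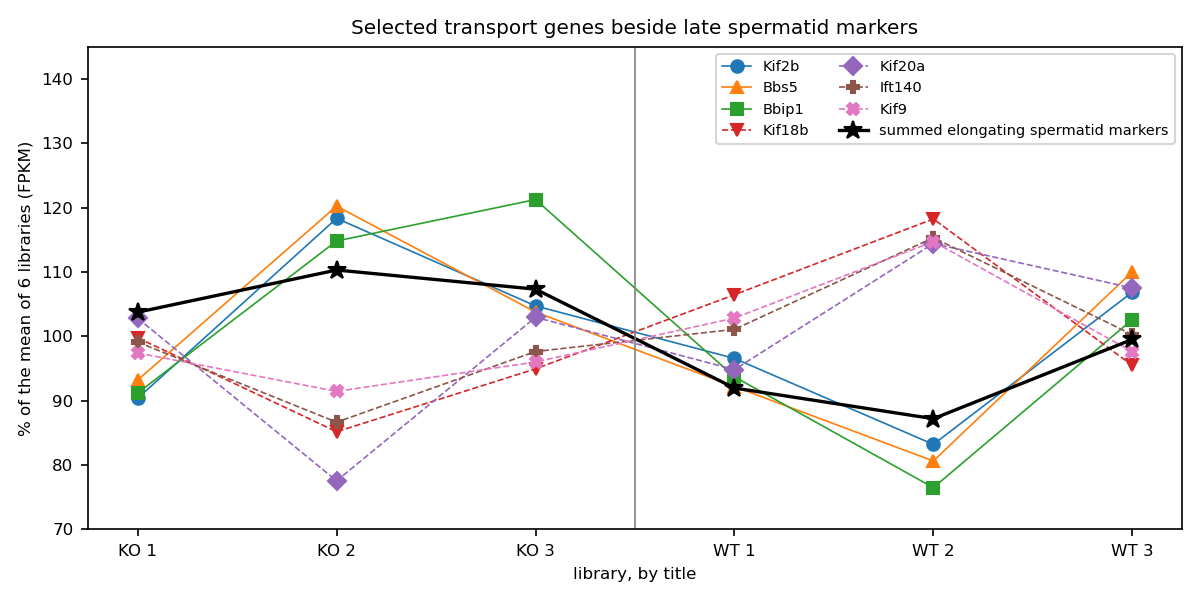
Level in percent of the mean of 6 libraries (vertical axis) for 7 members chosen after their values were seen and for the summed elongating spermatid markers (stars), by library (horizontal axis); lines only join the points of one item, and replicates have no order. Kif2b, Bbs5 and the marker sum are lowest in WT 2 and highest in KO 2, while Kif18b and Ift140 show the opposite.

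Other genes of the same transport pathways, outside the symbol rule, were read from the same fit. Of 70 such genes tested, 0 were called in either direction, with 2 higher (2.86%) and 8 lower (11.4%) when p under 0.05 was taken before adjustment, where 5.38% of all tested genes were higher and 8.89% lower. Their median log2 fold change was -0.04. The IFT-A subunits that carry other names, Wdr19, Wdr35 and Ttc21b, all had negative values, as they did under each scaling. Ttc21b was at 30.2, 27.7 and 29.9 FPKM in KO-titled testes and 32.9, 36.8 and 32.9 FPKM in WT-titled testes (log2 fold change -0.22, SE 0.06, adjusted p = 0.190 by limma), and its groups did not overlap. Summed, these subunits were at 71.9 ± 2.35 FPKM in KO-titled testes and 80.4 ± 5.35 FPKM in WT-titled testes (SD, n = 3 each), and the groups overlapped with median-of-ratios and upper-quartile scaling and lay apart with total scaling. Kifap3, the non-motor subunit that joins Kif3a and Kif3b to cargo, was at 54.6 ± 2.77 FPKM in KO-titled testes and 50.5 ± 1.53 FPKM in WT-titled testes (SD, n = 3 each; log2 fold change 0.11, adjusted p = 0.396 by limma). Dync2h1, the heavy chain of dynein-2, had a log2 fold change of -0.10 (adjusted p = 0.508 by limma). Of the 11 tested genes listed under dynein-2, 5 had positive and 6 negative values. Dynlt3 (0.24, adjusted p = 0.248 by limma) and Dynll2 (0.16, adjusted p = 0.245 by limma), both among them, were the 2 higher genes of the 70. The smallest adjusted p of the 70, 0.121 by limma, was that of Rab10, which was lower in KO-titled testes (log2 fold change -0.24, SE 0.06). Its level was 14.6 ± 0.423 FPKM in KO-titled testes and 17.3 ± 0.864 FPKM in WT-titled testes (SD, n = 3 each). Rab10os, the antisense gene of Rab10, was at 7.53, 6.62 and 7.06 FPKM in KO-titled testes and listed at 0 in each WT-titled library. Of 13 manchette genes tested, 0 were called in either direction and 0 had an unadjusted p under 0.05.

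Promoters of some of these genes hold a sequence feature that the symbol rule did not use. RFX transcription factors, which drive many ciliary genes, bind the X-box, an inverted repeat. Rfx2, the RFX factor that mouse spermatids depend on, was at 98.2 ± 0.412 FPKM in KO-titled testes and 107 ± 3.08 FPKM in WT-titled testes (SD, n = 3 each; log2 fold change -0.12, SE 0.05, adjusted p = 0.296 by limma). RefSeq promoters of GRCm38.p6, from 250 bases before to 50 after each start, were at hand for 53 of the 65 members. The letters GTNNCCNNGGNNAC, which read the same on both strands, were found in 8 of these 53 genes (15.1%) and in 2.16% of all 27025 genes with a promoter. They stood in Bbs1, Bbs4, Bbs7, Ift22, Ift57, Kif9, Kif18a and Kif23. The cyclic AMP response element TGACGTCA, bound by CREM, was found in Ift57, Kif5c, Kif17 and Kif18a (7.55%, against 2.03% of all genes). The 27025 genes were taken whatever their type or level in testis, so the shares of members and of all genes do not come from like sets. A match describes letters, not binding.

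For each gene, the first X-box that lies before the start together with 20 bases on either side is shown; those of Bbs1 and Bbs4 lie after the start, and that of Kif9 at -27 from one of its starts has flanking bases that cross it. They are printed to let the letters be compared between genes; capitals mark the X-box, and each runs 5′ to 3′ on the strand of its gene. Bbs7 is at chr3:36613477-36613530 (minus strand), Ift22 at chr5:136908067-136908120 (plus), Ift57 at chr16:49699187-49699240 (plus), Kif18a at chr2:109280648-109280701 (plus) and Kif23 at chr9:61946852-61946905 (minus):
Bbs7: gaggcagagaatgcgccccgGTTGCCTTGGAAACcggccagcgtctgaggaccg
Ift22: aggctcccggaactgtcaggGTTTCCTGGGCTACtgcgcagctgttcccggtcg
Ift57: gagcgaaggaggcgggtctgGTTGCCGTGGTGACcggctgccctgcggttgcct
Kif18a: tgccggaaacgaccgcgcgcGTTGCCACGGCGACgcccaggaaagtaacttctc
Kif23: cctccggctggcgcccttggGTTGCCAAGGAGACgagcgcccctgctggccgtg
Levels of these 5 genes differed widely, with 6-library means from 6.82 FPKM (Kif18a) to 91.5 FPKM (Ift22). None of the 8 genes with the motif passed the test by limma, and their log2 fold changes lay between -0.14 (Kif9) and 0.01 (Bbs4).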

How the data were processed

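Trizol RNA was made into directional NEBNext Ultra II libraries, per the labels' protocols. HISAT2 and mm10 are named without versions in the submitters' processing notes. Quantifier, annotation and strand setting: not given in the sources used here. The deposited tables hold FPKM, scaled by length and depth by the authors; the unit was read from the values. Each table had 25910 rows, and the 1078 rows of 333 repeated symbols were summed by symbol. The labels name no animals, so replicates may be technical and p-values cover library spread only.

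limma 3.58.1 (R 4.3.3, with trend and robust options) tested log2(FPKM + 1) for the 12952 genes whose group mean reached 1 FPKM in either group; p-values were adjusted by Benjamini-Hochberg over all of them, and adjusted p under 0.05 was called. The scale understates fold changes of low genes. In simulated libraries of 12952 genes the fit found 75.0% of 100 genes shifted by 0.5 (log2) and 95.0% of 100 shifted by 1, with 5 false calls. Exon overlaps came from GENCODE M21 (GRCm38); one overlapping partner is not reported here. Near copies were BLAST 2.17.0 matches of 90% identity or more along 50% or more of a longest transcript. Alignments used Biopython 1.88 and figures matplotlib 3.10.9. Floors cover counting error only. The members and gene lists were chosen with earlier results of these data known. Named were the target, members with an unadjusted p under 0.05, the most abundant and most changed member of each family or complex, members at 0 in a group, the X-linked member, and members with overlapping genes or near copies; others are examples of their class.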

Additional observations from a re-analysis of the deposited data

How the results depend on the processing

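No member was called higher or lower in any of 18 alternative fits, which changed the pseudocount, filter, scaling, robustness, threshold (0.1), rows per symbol, replicate block or libraries; the smallest adjusted p of a member was 0.167 (limma, Bbip1, without KO replicate 1 and WT replicate 2, a pair left out after the data were seen). Without single libraries the counts of members called were 0 to 0 in both directions, and the median log2 fold change of members ran from -0.08 to -0.04 (-0.03 without that pair).

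Median-of-ratios scaling moved the log2 ratio of the summed IFT genes to -0.025 and that of all members to 0.0053, against -0.04 as deposited; it moved the median of all genes to -0.0055. Without single libraries those ratios ran from -0.09 to -0.04 and from -0.05 to -0.01, that of the kinesins from -0.06 to 0.0018 and that of the BBS genes from 0.03 to 0.13.

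Of 33 named members, 10 changed sign in at least one fit, none with an adjusted p (limma) under 0.787. With median-of-ratios scaling these were Ift22 (0.0035), Kif27 (0.015), Kif4 (0.015) and Kifc1 (0.0061), and with upper-quartile scaling Kif27 (0.0031) and Kif4 (0.0087). Without the pair Ift22 (0.018), Kif16b (0.043), Kif4 (0.050), Kif7 (0.041) and Kifc1 (0.021) turned. Over the fits without single libraries or the pair, Kif4 ran from -0.060 to 0.050, Bbs4 from -0.037 to 0.047, Bbs12 from -0.065 to 0.025, Kif7 from -0.090 to 0.041, Kif16b from -0.11 to 0.043, Kifc1 from -0.057 to 0.021, Kifc5b from -0.0038 to 0.022, Ift22 from -0.058 to 0.018 and Kifc3 from -1.29 to 1.34. Kifc3, listed at 0 in a library of each group, turned negative without KO replicate 2 (-0.66), KO replicate 3 (-0.61) or WT replicate 2 (-1.29). It stayed positive without KO replicate 1 (1.34), WT replicate 1 (0.64) or WT replicate 3 (0.71). The cause of the sign changes was not tested.

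Over all genes, 102 higher and 47 lower became 178 and 96 at a threshold of 0.1, and 56 higher without a filter; 28 lower with median-of-ratios scaling and 27 lower with single-row symbols; and 49 to 184 higher and 23 to 49 lower without single libraries. With the replicate block, 32 genes were higher and 18 lower, 0 members among them. Same-numbered libraries deviated from their group means with correlations of 0.06, -0.13 and 0.06, so the block has no basis in pairing. Depth limits the members under 1 FPKM, where 3 fragments on 1 kb equal up to 0.109 FPKM.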
